A study of Mus musculus with 12 samples.

Results

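Libraries of the medial prefrontal cortex (PFC) from mice that carried microbes when they were culled were compared with libraries from mice that did not. All 12 libraries of the series entered: 8 with microbes, made up of 4 from conventionally raised mice (CON) and 4 from germ-free mice colonized after weaning (exGF), against 4 from germ-free mice (GF). The libraries were assigned by their labelled group, not by any measured value. The animals were male Swiss Webster mice aged 10 weeks, kept on the same autoclaved diet. GF mice stayed in gnotobiotic isolators, whereas the exGF group lived there only until postnatal day 21 and from then on in conventional housing near the CON group, so the presence of microbes and the kind of housing at culling cannot be told apart. RNA from 2 to 3 animals was pooled for each library, polyA RNA was sequenced, and p-values measure the spread between pools. In the test of 8 against 4 libraries this spread also holds any difference between CON and exGF. The 4 columns that hold the exGF libraries are named GFR1 to GFR4 and were taken as exGF because no other samples remain for them. They could not be matched to single exGF samples.

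Gut microbes reach the brain through the immune system, through the vagus nerve and through metabolites that enter the circulation. Interferons are immune signals whose target genes, such as the Ifit family, are switched on in many cell types, the brain's included. Myelin is the membrane that oligodendrocytes wrap around axons, and its genes remain active in the adult cortex, where neuronal activity is one of the influences on them. The combined comparison asks which transcripts follow the presence of microbes at culling whatever the early life had been. CON and exGF mice were both colonized as adults but differ in the weeks before weaning. CON mice also came from other breeding pairs than GF and exGF mice. A difference of CON from exGF or GF can therefore come from the colony as well, and these cannot be told apart.

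Counts on genes ranged from 22702599 to 29134760 in the 8 libraries with microbes and from 13280926 to 23465074 in the 4 GF libraries, so the GF libraries were on average shallower. Pairs aligned to several places made up 12.95% to 17.7% and 13.7% to 19.2% of the libraries, and mitochondrial genes took 6.12% to 8.47% and 5.68% to 9.80% of the counts on genes. Slc17a7, the vesicular glutamate transporter of cortical excitatory neurons, was at 1334 to 1629.6 CPM (counts scaled to a common library size by TMM normalization) in every library. The striatal markers Adora2a and Drd2 stood highest in CON2 (9.73 and 5.38 CPM) and GFR4 (9.16 and 6.50 CPM), against 1.36 to 3.94 CPM for Adora2a in the other 10 libraries.

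With p-values adjusted by Benjamini-Hochberg, the quasi-likelihood test of edgeR called nothing: 0 of 16032 tested genes (0%) were called higher and 0 (0%) lower with microbes at an adjusted p under 0.1. At an unadjusted p under 0.05 there were 624 higher genes (3.89%) and 698 lower genes (4.35%). DESeq2, run on the same 8 and 4 libraries as an alternative, called 21 of 17902 genes higher (0.117%) and 33 lower (0.184%), and limma-voom called 0 in each direction. All 8 libraries with microbes lay above all 4 GF libraries for 56 genes (0.349%) and below them for 52 (0.324%). The median log2 difference over all tested genes was -0.0038. Differences below are log2, with microbes minus without, with their standard error (SE), and no gene named from the 8 against 4 edgeR test passed its threshold. An adjusted p by DESeq2 is given below only for genes that DESeq2 called, but not for all of them. Further genes called lower by DESeq2 include Ermn, Tmem88b and B230217C12Rik (adjusted p = 0.00136 by DESeq2), Mbp (0.00177), Mobp (0.00186), Klf4 (0.0501) and Dusp6 (0.0624). Those called higher include Ifit1bl1 (adjusted p = 0.00729 by DESeq2), Tubb6 (0.0298), Atp13a4 (0.0370), Thbs3 (0.0485) and Stag3 (0.0684). Many named genes were not called by DESeq2, among them Ifit1 (adjusted p = 0.135 by DESeq2), Irf7 (0.186), Myrf (0.236), Nr4a2 (0.291) and Junb (0.417).

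The transcripts with the lowest p among those lower with microbes were mostly myelin genes. Of the 10 lowest, 8 belong to a list of 24 genes of myelin and mature oligodendrocytes, and all 10 had adjusted p-values of 0.129 to 0.168 by edgeR's quasi-likelihood test.

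Bcas1 (ENSMUSG00000013523, chr2:170346991-170427845), a marker of myelinating oligodendrocytes, had 81.7, 86.5, 77.7 and 63.6 CPM in CON1 to CON4, 123, 79.7, 79.8 and 118 CPM in GFR1 to GFR4, and 139, 125, 208 and 156 CPM in GF1 to GF4. The 3 groups were ordered CON, exGF and GF in their means (77.4, 100.2 and 157 CPM), and the groups with and without microbes did not overlap. The difference was -0.82 (SE 0.16, adjusted p = 0.129 by edgeR and 0.00136 by DESeq2). Antisense transcripts overlap this gene, and counting ignored strand, so their reads cannot be told apart.

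Mbp, whose protein compacts the myelin layers, had 1206, 1134, 984 and 986 CPM in CON1 to CON4, 1339.9, 1041, 1007 and 1663 CPM in GFR1 to GFR4, and 1937, 1459.8, 2566 and 1861 CPM in GF1 to GF4. Its groups overlapped through GFR4 alone, which lay above GF2. The difference was -0.74 (SE 0.14, adjusted p = 0.129 by edgeR). Mobp (chr9:120149707-120181484), an oligodendrocyte basic protein, was at 355 ± 87.3 CPM (SD, n = 8) with microbes and 637 ± 159 CPM (SD, n = 4) without, a difference of -0.84 (SE 0.17, adjusted p = 0.138 by edgeR), the most negative of the 24.

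Ermn (chr2:58045113-58052864), a cytoskeletal protein of myelinating cells, had 21.2 to 24.4 CPM in CON, 16.5 to 31.1 CPM in exGF and 34.6 to 52.2 CPM in GF, without overlap between the libraries with and without microbes. Its difference was -0.79 (SE 0.15, adjusted p = 0.129 by edgeR). Tspan2, a tetraspanin of oligodendrocytes, differed by -0.65 (SE 0.12), Cldn11, which forms the tight junctions of the myelin sheath, by -0.68 (SE 0.14), and Mal, a raft protein of myelin, by -0.75 (SE 0.15). In these 3 genes GFR1 or GFR4 overlapped the GF range. Tmem88b, which is not on the list, had 19.9 to 30.1 CPM with microbes and 31.9 to 54.5 CPM without, a difference of -0.68 (SE 0.13, adjusted p = 0.129 by edgeR).

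**Figure D1:**
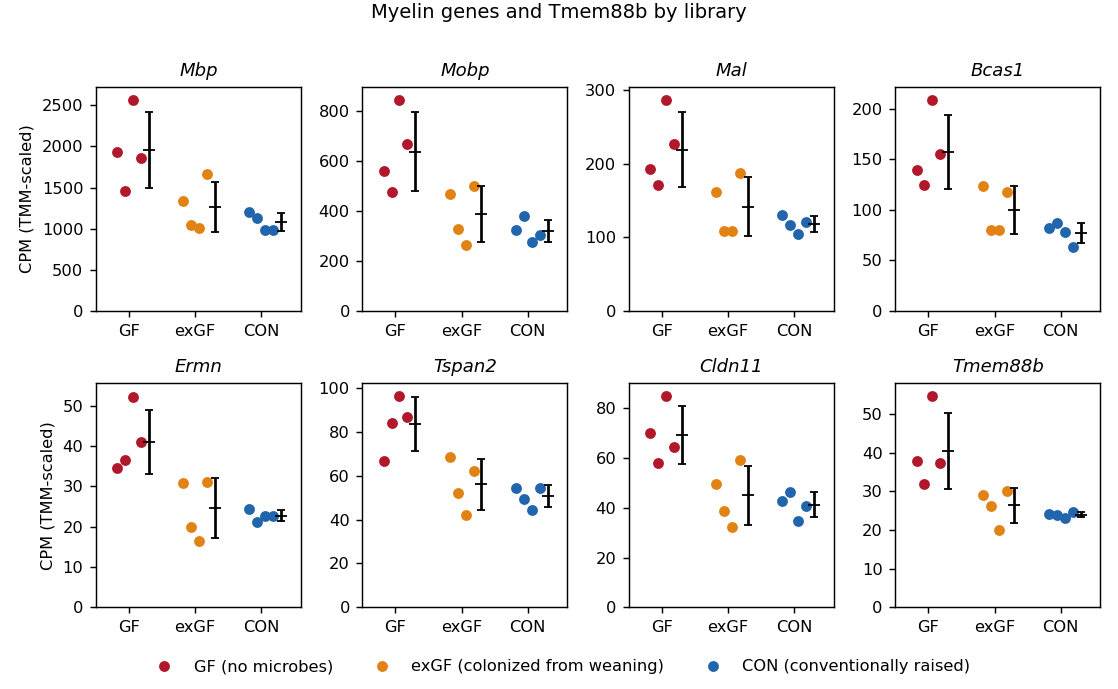
CPM (TMM-scaled, linear axis from 0) of 7 myelin genes and Tmem88b in each of the 12 libraries; each point is a library, and the bar beside each group is its mean ± SD over 4 libraries. GFR1 and GFR4 are the 2 highest exGF libraries in every panel, and Bcas1 runs from 125 to 208 CPM in GF against 63.6 to 123 CPM in the other groups.

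Across the whole myelin list 21 of 24 tested genes were lower at an unadjusted p under 0.05 and 0 higher, where 4.35% and 3.89% of all tested genes were. The median difference was -0.54, 23 of 24 genes were negative, and Apod, an apolipoprotein, was the exception at 0.04. In 4 of the 24, Bcas1, Ermn and Car2 among them, all libraries with microbes lay below all GF libraries (0.324% of all tested genes), and DESeq2 called 10 of them lower (0.184% of all genes it tested). Shown separately, the median was -0.57 for CON minus GF and -0.46 for exGF minus GF, and both differences use the same GF libraries. The list chosen here was known from earlier results of these data to differ in GF mice, so its direction is not independent evidence. In bulk tissue, fewer oligodendrocytes and less RNA per oligodendrocyte cannot be told apart.

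In the 5 named myelin genes whose groups overlapped (Mbp, Mobp, Tspan2, Cldn11 and Mal), the library within the GF range was GFR1 or GFR4. The list level, the mean log2(CPM + 1) relative to the GF mean, was -0.29 in GFR1 and -0.13 in GFR4 but -0.68 in GFR2 and -0.72 in GFR3, while CON ran from -0.71 to -0.41 and GF from -0.24 to 0.34. The highest GF level, 0.34, was that of GF3, and the median difference without that library was -0.33. Without GFR1, edgeR called 4 genes higher and 12 lower, and without GFR4 2 higher and 11 lower, 9 of the lower genes in each case being on the myelin list. Without GF replicate 4, 1 gene was called higher, and leaving out any of the other 9 libraries gave 0 calls in either direction. The striatal list stood at 0.99 in CON2 and 0.97 in GFR4 and at -0.22 to 0.19 in the other 10 libraries, and its part in the myelin values was not tested.

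The lists of regulators and of earlier stages of the lineage had medians nearer to 0. Of 10 oligodendrocyte transcription factors 2 were lower at an unadjusted p under 0.05 and all 10 were negative, with a median of -0.18. Nkx6-2, a homeodomain factor of the mature lineage, had 1.90 to 3.97 CPM in CON, 1.68 to 2.90 CPM in exGF and 3.45 to 8.17 CPM in GF, a difference of -0.98 (SE 0.24, adjusted p = 0.339 by edgeR and 0.0483 by DESeq2). Its groups overlapped only between CON2 and GF2. Myrf, the transcription factor that switches on myelin genes, was at 20.7 ± 2.31 CPM (SD) in CON, 25.1 ± 2.24 in exGF and 30.2 ± 5.92 in GF, a difference of -0.40 (SE 0.12, adjusted p = 0.456 by edgeR). Sox10, the lineage factor upstream of Myrf, differed by -0.23 (SE 0.12, adjusted p = 0.626 by edgeR). Of 9 tested precursor genes 1 was lower at an unadjusted p under 0.05 (Enpp6, a marker of newly formed oligodendrocytes, -0.59, SE 0.19), and the median was 0.05.

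Among the higher transcripts, those of the interferon-induced Ifit cluster on chromosome 19 led. Ifit3 (ENSMUSG00000074896, chr19:34583531-34588731), an antiviral protein induced by interferon, had 2.91, 6.10, 1.71 and 3.70 CPM in CON1 to CON4 and 0.497, 2.29, 3.82 and 4.43 CPM in GFR1 to GFR4. In GF1 to GF4 it had 0.446, 0.179, 0.215 and 0.441 CPM. All 8 libraries with microbes were above all 4 without, but GFR1 stood only just above. The means were 3.18 ± 1.73 CPM (SD, n = 8) and 0.3202 ± 0.143 CPM (SD, n = 4), a difference of 3.35 (SE 0.58, adjusted p = 0.129 by edgeR's quasi-likelihood test and 4.36e-04 by DESeq2).

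Ifit1bl1 (ENSMUSG00000079339, chr19:34592891-34601956), an Ifit1-like gene of the same cluster, had 1.60, 2.22, 1.30 and 3.31 CPM in CON1 to CON4 and 0, 1.64, 1.63 and 2.21 CPM in GFR1 to GFR4. In GF libraries it had at most 2 counts. Summed over libraries it had 365 counts with microbes and 3 without, a depth-adjusted ratio of 42.4 (95% interval 14.4 to 206, counting error only). GFR1 was at 0 as well, so the groups overlapped, and the fitted log2 difference of 5.22 (SE 0.98, adjusted p = 0.129 by edgeR) depends on the small count added to avoid zeros. Leaving out GFR1, the library at 0, favoured a low value (adjusted p = 9.26e-04 by edgeR). Ifit1bl1 was called in 3 of 21 other settings.

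Ifit1 (chr19:34640871-34650009), a gene whose protein binds foreign RNA, had 3.77, 3.50, 3.65 and 2.63 CPM in CON1 to CON4, 2.69, 2.33, 2.54 and 2.35 CPM in GFR1 to GFR4 and 1.12, 1.97, 2.10 and 1.60 CPM in GF1 to GF4. The libraries with and without microbes did not overlap. The difference was 0.77 (SE 0.21, adjusted p = 0.410 by edgeR). Ifit3b, a close copy of Ifit3, had 0.819 to 1.92 CPM in CON, 1.70 to 3.53 in exGF and 0.330 to 2.24 in GF, a difference of 0.94 (SE 0.42, adjusted p = 0.591 by edgeR). Because Ifit3 and Ifit3b are near copies, reads that align to both were left out by the counting, and their values are uncertain. Of the 6 genes of the cluster tested, 4 were higher at an unadjusted p under 0.05 and 0 lower, with a median of 0.85. Ifit2 (-0.13) and Ifit1bl2 (-0.28) were the negative ones. Ifit2 had 7.12 to 7.47 CPM in CON, 11.6 to 23.3 CPM in exGF and 5.40 to 21.4 CPM in GF, so that CON lay within the GF range.

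The upstream sequences of these genes, taken from RefSeq promoters on GRCm38.p6, are shown because interferon-activated factors bind a repeated GAAA core in the promoters of Ifit genes. The search was for GAAANNGAAA on both strands in the 250 bases before the gene start, and capitals mark each match, which here reads TTTCNNTTTC because all matches lie on the opposite strand. The windows are chr19:34583353-34583436 (plus strand) for Ifit3, chr19:34640754-34640833 (plus strand) for Ifit1 and chr19:34602043-34602122 (minus strand) for Ifit1bl1, each written 5′ to 3′ in the direction of transcription.
Ifit3: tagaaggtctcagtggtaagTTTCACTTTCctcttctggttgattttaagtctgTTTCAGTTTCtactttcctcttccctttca
Ifit1: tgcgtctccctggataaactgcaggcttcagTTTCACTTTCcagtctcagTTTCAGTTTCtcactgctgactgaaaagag
Ifit1bl1: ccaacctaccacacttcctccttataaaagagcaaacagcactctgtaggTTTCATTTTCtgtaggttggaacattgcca
Ifit3 and Ifit1 each hold 2 matches and Ifit1bl1 1. The Ifit3b window of 84 bases (chr19:34607749-34607832) is identical to that of Ifit3 in all 84. The core was found upstream of 5 of 6 Ifit genes with a RefSeq promoter and of 10 of 19 other interferon-stimulated genes, beside 936 of 27025 genes with a promoter in all (3.46%, or 978 of 32851 promoters, 2.98%). Ifit2, Irf7 and Oasl2 had no match in this window.

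**Figure D2:**
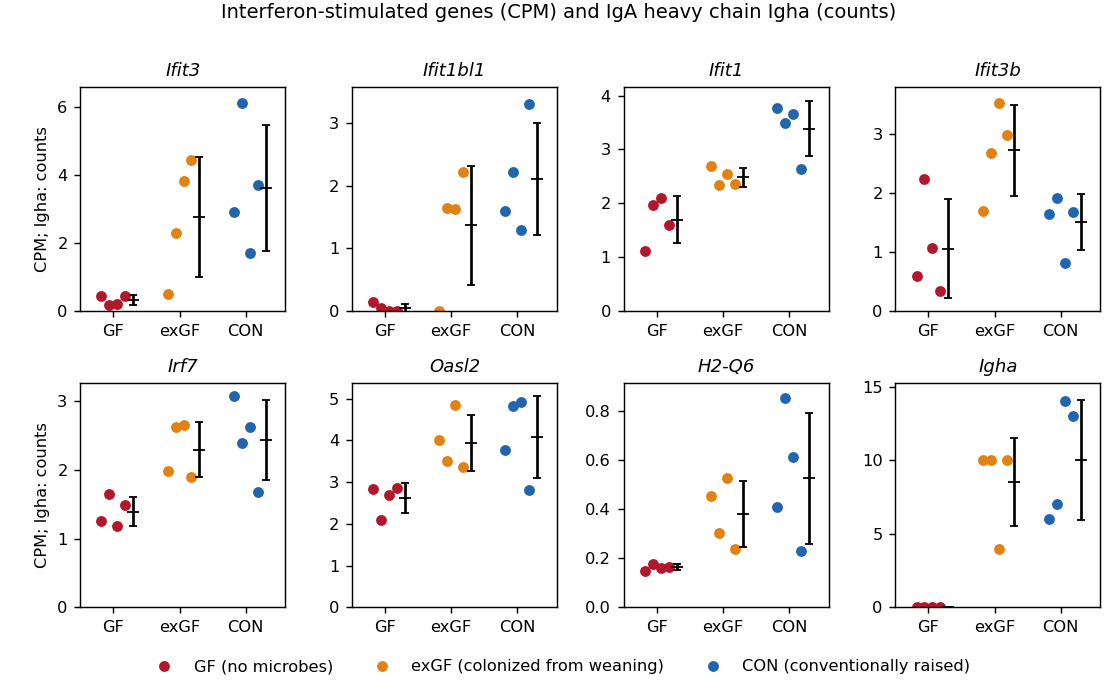
Values of interferon-stimulated genes in CPM (TMM-scaled) and of the IgA heavy chain gene Igha in raw counts, by library, with the mean ± SD of each group of 4. Igha is at 0 counts in all 4 GF libraries and at 4 to 14 counts in the other 8, and for Ifit3 the lowest exGF point, GFR1 at 0.497 CPM, is nearest to the GF points.

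In the list of other interferon-stimulated genes edgeR and DESeq2 called 0 of 25. Irf7, the transcription factor that amplifies type I interferon responses, had 3.08, 2.39, 2.63 and 1.68 CPM in CON1 to CON4, 1.99, 2.63, 2.65 and 1.91 CPM in GFR1 to GFR4, and 1.26, 1.66, 1.18 and 1.49 CPM in GF1 to GF4. The groups did not overlap, though CON4 was nearly level with GF2, and the difference was 0.75 (SE 0.21, adjusted p = 0.414 by edgeR). Oasl2, an antiviral oligoadenylate synthetase-like gene, differed by 0.62 (SE 0.18, adjusted p = 0.434 by edgeR), with CON4 within the GF range. Of the 25, 3 were higher at an unadjusted p under 0.05 and 0 lower (3.89% and 4.35% of all tested genes), 21 were positive, and the median was 0.16. In the class I antigen presentation list 2 of 13 were higher at an unadjusted p under 0.05 and 0 lower (median 0.12). H2-Q6, a nonclassical class I gene with close paralogs, had 0.229 to 0.853 CPM with microbes and 0.149 to 0.179 CPM without, a difference of 1.43 (SE 0.47, adjusted p = 0.513 by edgeR).

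Igha (ENSMUSG00000095079, chr12:113254830-113260236), the heavy chain of immunoglobulin A made by plasma cells, had 6, 7, 14 and 13 counts in CON1 to CON4 and 10, 10, 4 and 10 counts in GFR1 to GFR4. It had 0 counts in each of the 4 GF libraries. Against a floor of 3 counts over the GF group, the 74 counts with microbes were 8.89-fold higher after adjustment for depth. The exact 95% interval of the ratio, for counting error only, began lower, at 7.05. The gene was too low for the main filter, and it was singled out after its values were seen. Without a filter on low counts its adjusted p was 0.0241 by edgeR's quasi-likelihood test, and it was 0.00646 by DESeq2.

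Other plasma cell transcripts, also chosen after their values were seen, were mixed. Jchain, which joins IgA and IgM units, had 57 counts with microbes and 15 without, a depth-adjusted ratio of 1.37 (95% interval 0.765 to 2.61, counting error only). Igkc, the kappa light chain, had 63 and 6 counts, a ratio of 3.79 (95% interval 1.65 to 10.7, counting error only), and Ighm, the IgM heavy chain, differed by 0.78 with an adjusted p of 0.578 by edgeR. Neutrophil genes were low: S100a8, a subunit of calprotectin, differed by 2.41 (SE 0.72, adjusted p = 0.442 by edgeR), with 0.207 to 1.62 CPM with microbes and 0 to 0.215 CPM without, and Ngp, a neutrophil granule protein, by 1.44 (adjusted p = 0.505 by edgeR). S100a9 differed by 1.45 (SE 0.52, adjusted p = 0.556 by edgeR).

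Genes induced by neuronal activity had mostly lower values with microbes, although none passed the main test. Immediate early genes are transcribed within minutes of stimulation and encode mainly transcription factors. Of 24 tested, 10 were lower at an unadjusted p under 0.05 and 0 higher, beside 4.35% and 3.89% of all tested genes, the shares against which the counts of the following lists are also to be read. In this list 21 were negative, and the median was -0.31. Shown separately it was -0.45 for CON minus GF and -0.22 for exGF minus GF. Between CON and exGF, 7 of the 24 had an unadjusted p under 0.05 by edgeR, beside 5.68% of all tested genes. The list level of GFR4 (0.07) lay within the GF range of -0.15 to 0.14.

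Ier5, an immediate early transcription regulator, had 75.9, 70.2, 66.5 and 68.4 CPM in CON1 to CON4, 82.3, 73.9, 65.9 and 98.0 CPM in GFR1 to GFR4, and 99.8, 90.8, 95.6 and 107 CPM in GF1 to GF4. GFR4 was the only library with microbes within the GF range. The difference was -0.39 (SE 0.10, adjusted p = 0.339 by edgeR). Leaving out GFR4, the library that overlapped, favoured a low value (adjusted p = 0.0364 by edgeR). Ier5 was called in 2 of 22 other settings. Klf4, a zinc-finger factor, had 4.14 to 7.46 CPM with microbes and 6.80 to 14.99 CPM in GF, a difference of -0.81 (SE 0.20, adjusted p = 0.339 by edgeR), and Nr4a2, an orphan nuclear receptor, had 8.20 to 20.2 CPM with microbes and 14.0 to 30.6 CPM in GF, a difference of -0.83 (SE 0.23, adjusted p = 0.410 by edgeR). In both, 2 exGF libraries reached into the GF range. Junb, an AP-1 subunit, differed by -0.41 (SE 0.15, adjusted p = 0.557 by edgeR).

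Among effectors that appear later, Bdnf (chr2:109674700-109727007), the activity-dependent neurotrophin, had 33.6, 31.9, 36.5 and 34.8 CPM in CON1 to CON4, 42.8, 36.0, 35.8 and 34.9 CPM in GFR1 to GFR4, and 42.2, 54.3, 40.3 and 57.7 CPM in GF1 to GF4. GFR1 alone was within the GF range, and the remaining 7 libraries with microbes were below all 4. The difference was -0.44 (SE 0.10, adjusted p = 0.306 by edgeR and 0.0298 by DESeq2). Leaving out GFR1, the library that overlapped, favoured a low value (adjusted p = 0.0988 by edgeR). Bdnf was called in 2 of 22 other settings. Tnfaip6, a hyaluronan-binding protein, differed by -0.94 (SE 0.27) and Crem, a cyclic AMP response modulator, by -0.34 (SE 0.12). Of 21 genes in this list 4 were lower and 0 higher at an unadjusted p under 0.05, with a median of -0.13.

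The ERK cascade carries growth factor signals to these genes, and its feedback phosphatases and Sprouty inhibitors report on it. Dusp6, the ERK phosphatase, had 79.1, 61.6, 68.1 and 75.8 CPM in CON1 to CON4, 101, 83.4, 77.8 and 92.3 CPM in GFR1 to GFR4, and 101, 109.9, 104 and 115 CPM in GF1 to GF4. No library with microbes exceeded a GF library, but GFR1 and GF1 were nearly equal. The difference was -0.43 (SE 0.10, adjusted p = 0.339 by edgeR). Dusp1, a broader phosphatase, differed by -0.43 (SE 0.17, adjusted p = 0.578 by edgeR). Of 18 genes 5 were lower and 0 higher at an unadjusted p under 0.05, with a median of -0.15.

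**Figure D3:**
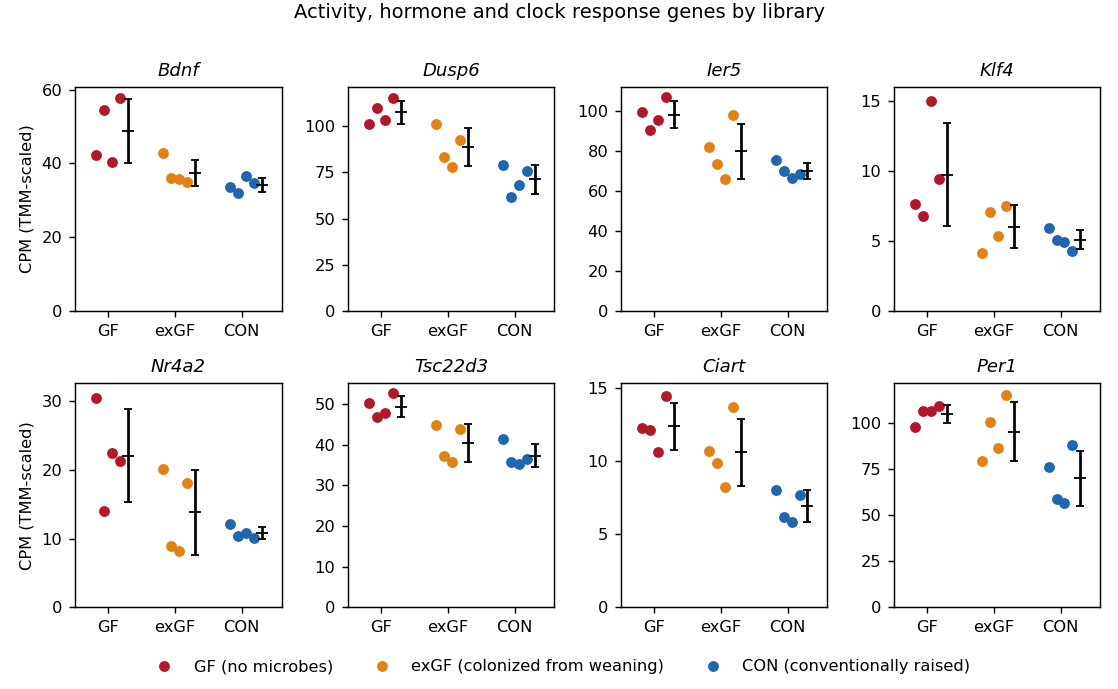
CPM (TMM-scaled) by library of activity-induced genes (Bdnf, Ier5, Klf4, Nr4a2), the ERK phosphatase Dusp6, the glucocorticoid-responsive Tsc22d3 and the clock genes Ciart and Per1, with the mean ± SD of each group of 4. For Ciart and Per1 the exGF mean lies between those of CON and GF, while for Tsc22d3 all points with microbes (35.2 to 44.9 CPM) lie below the GF points (46.7 to 52.6 CPM).

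Glucocorticoid-responsive and clock genes also had mostly negative differences. Tsc22d3, a glucocorticoid-induced leucine zipper protein, had 41.4, 35.8, 35.2 and 36.5 CPM in CON1 to CON4, 44.9, 37.2, 35.8 and 43.8 CPM in GFR1 to GFR4, and 50.1, 46.7, 47.9 and 52.6 CPM in GF1 to GF4. The groups did not overlap, and the difference was -0.34 (SE 0.08, adjusted p = 0.339 by edgeR and 0.0411 by DESeq2). Sgk1, a kinase induced by glucocorticoids and by osmotic stress, differed by -0.36 (SE 0.10, adjusted p = 0.414 by edgeR). Of 15 genes in the glucocorticoid list 4 were lower and 0 higher at an unadjusted p under 0.05 (median -0.12), and the receptor gene Nr3c1 was at -0.07.

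In the clock list 6 of 18 were lower and 0 higher at an unadjusted p under 0.05, with a median of -0.14. That median was -0.25 for CON minus GF and -0.05 for exGF minus GF. Ciart, a repressor of the clock, had 6.91 ± 1.08 CPM (SD) in CON, 10.6 ± 2.29 in exGF and 12.4 ± 1.58 in GF, and Per1, a core repressor, 69.9 ± 14.9, 95.1 ± 15.9 and 105 ± 4.94 CPM. The CON minus exGF difference was -0.62 (SE 0.16, unadjusted p = 0.00137 by edgeR) for Ciart and -0.44 (SE 0.14, unadjusted p = 0.00463 by edgeR) for Per1, neither passing the adjusted threshold. The hour at which each group was culled is not given in the sources used here.

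The remaining transcripts with the lowest p were of unrelated kinds. B230217C12Rik, a protein-coding gene of chromosome 11, had 33.6 to 39.0 CPM with microbes and 45.0 to 46.7 CPM in GF, a difference of -0.33 (SE 0.06, adjusted p = 0.138 by edgeR). Stag3, a meiotic cohesin subunit, had 0.249 to 0.821 CPM with microbes and 0.0551 to 0.179 CPM without (2.09, SE 0.43, adjusted p = 0.183 by edgeR). Glis1, a zinc-finger factor, had 0.622 to 1.07 CPM with microbes and 0.220 to 0.403 CPM without (1.33, SE 0.31, adjusted p = 0.308 by edgeR). For all 3 the groups did not overlap.

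Atp13a4, a transport ATPase, had 15.01 to 17.1 CPM with microbes and 10.7 to 13.3 CPM without, with equal means of 16.2 CPM in CON and exGF (0.37, SE 0.09, adjusted p = 0.339 by edgeR). The CON minus exGF difference for Atp13a4 was 0.00 (SE 0.10). Tubb6, a beta-tubulin, was at 4.41 ± 1.05 CPM (SD, n = 8) and 2.33 ± 0.705 CPM (SD, n = 4), and Thbs3, a thrombospondin of the extracellular matrix, at 11.5 ± 2.10 and 7.61 ± 0.746 CPM. Both were without overlap, with differences of 0.91 (SE 0.22) and 0.59 (SE 0.14). For Tubb6, however, GFR2 (3.11 CPM) was nearly level with GF4 (3.08 CPM), and the means were 5.07 CPM in CON and 3.75 CPM in exGF. AA465934 had 6.32 to 21.2 CPM with microbes and 5.37 to 6.61 CPM without (1.12, SE 0.27).

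For a pair of genes the libraries with microbes were themselves split. 1500004A13Rik was at 0.0853 CPM in CON2 and at 0 in GFR1 but at 10.5 to 42.6 CPM in the other 6, against at most 0.372 CPM in GF. It overlaps 5830417I10Rik on the other strand, and counting ignored strand. Gm24598, an annotated small nucleolar RNA, had 353 counts with microbes and 1 without, a ratio of 123 (95% interval 21.9 to 4869, counting error only), yet CON1 and GFR4 had 0.0410 and 0.0341 CPM.

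Several other cell types and tissues were examined for shifts. In the meningeal fibroblast list 5 of 14 genes were higher and 0 lower at an unadjusted p under 0.05, and the median was 0.22, but it was 0.42 for CON minus GF and 0.03 for exGF minus GF. Col1a2, a fibrillar collagen, had 36.0, 35.5, 29.5 and 30.4 CPM in CON1 to CON4, 21.5, 25.6, 25.9 and 24.7 CPM in GFR1 to GFR4, and 19.8, 18.2, 21.2 and 22.4 CPM in GF1 to GF4. CON stood apart from both other groups, so this did not follow the presence of microbes alone. Slc6a13, a transporter of GABA and taurine found in the meninges, was at 21.01 ± 3.53 CPM (SD) in CON, 14.6 ± 2.96 in exGF and 10.9 ± 1.09 in GF. The summed level of the 14 meningeal genes ran from 337 to 429 CPM in CON, 259 to 343 in exGF and 237 to 316 in GF, and its part in the higher genes was not tested.

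Microglial genes and sensors of microbes gave medians near that of all genes. Of 18 microglial genes 0 were higher and 0 lower at an unadjusted p under 0.05 by edgeR (DESeq2 called 0), with a median of 0.04, which was 0.17 for CON minus GF and -0.07 for exGF minus GF. Between CON and exGF, 9 of the 18 had an unadjusted p under 0.05 by edgeR, beside 5.68% of all tested genes. Cx3cr1, the fractalkine receptor, had 45.6 to 55.7 CPM in CON, 39.4 to 45.1 in exGF and 40.5 to 47.9 in GF. The 17 pattern receptors and adaptors, among them Tlr4 (0.08) and Myd88 (0.18), had a median of 0.06. With against without microbes, 0 of these 17 were higher and 0 lower at an unadjusted p under 0.05 by edgeR (DESeq2 called 0). The 10 tested genes of the aryl hydrocarbon receptor response, which bacterial indoles can trigger, gave 1 higher and 0 lower at an unadjusted p under 0.05 (Cyp1b1, 0.55) and a median of 0.01.

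**Figure D4:**
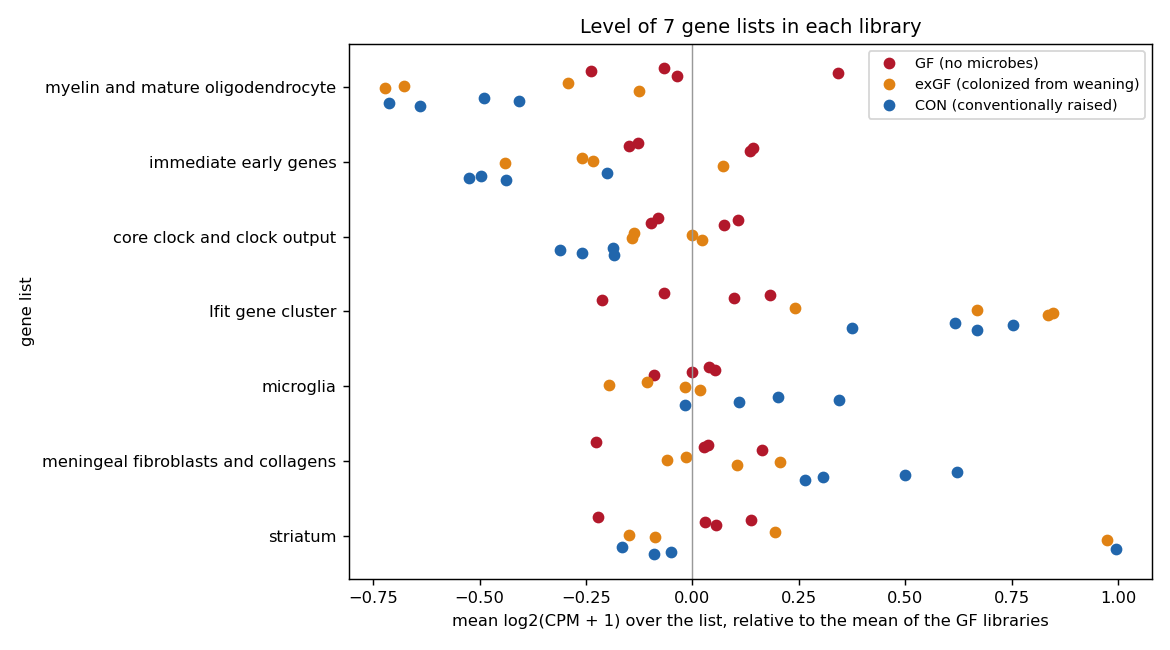
Mean log2(CPM + 1) of 7 gene lists in each library, relative to the mean of the GF libraries (x axis), with 1 point per library coloured by group. For myelin genes GFR1 (-0.29) and GFR4 (-0.13) lie nearer to GF than GFR2 and GFR3 do, and for the striatal list CON2 and GFR4 stand apart from the other 10 libraries.

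Metabolic lists had negative medians, and the astrocyte, endothelium, excitatory layer, interneuron and transmitter receptor lists had medians of -0.07 to 0.05. The median was -0.11 over 26 nuclear oxidative phosphorylation subunits (23 negative, 2 lower at an unadjusted p under 0.05), -0.17 over 9 mitochondrially encoded genes (9 negative, 1 lower), -0.09 over 18 cholesterol genes (2 lower) and -0.01 over 18 heat-shock and cold-inducible genes (0 in either direction by edgeR or DESeq2). For the nuclear subunits the median was -0.03 for CON minus GF and -0.18 for exGF minus GF. Their list level was lowest in GFR2 (-0.51) and CON4 (-0.43) and highest in CON2 (0.25). Astrocytes gave 0.05 (14 genes, 2 lower), endothelium 0.03 (14 genes, 2 higher and 2 lower), excitatory layer markers -0.07 (15 genes, 2 lower), interneurons -0.04 (12 genes, 1 higher and 2 lower) and transmitter receptors -0.03 (20 genes, 1 higher and 2 lower). The choroid plexus list had a median of 0.35 (6 genes, 1 lower), the striatal list 0.23 (11 genes, 1 higher) and the blood list -0.20 (6 genes, 2 higher and 2 lower). In the choroid plexus list the differences ran from -1.03 to 0.68. Its list level was 0.59 in GF1 but -0.23 to -0.13 in GF2 to GF4. The summed level of the choroid plexus genes did not follow its median: it was 254 to 281 CPM in CON, 254 to 301 in exGF and 289 to 343 in GF. Enpp2 alone made up most of this sum, with means of 264 CPM with microbes and 312 CPM without. The sum therefore mainly shows Enpp2. Slc2a1, the glucose transporter of the blood-brain barrier, had 86.4 to 110.1 CPM with microbes and 111 to 131 CPM without, a difference of -0.26 (SE 0.07, adjusted p = 0.414 by edgeR). The neuronal marker Snap25 differed by -0.30 (SE 0.10, unadjusted p = 0.00866 by edgeR) and Rbfox3 by -0.17 (SE 0.08), while Slc17a7 was at -0.03 (SE 0.07). Their part in the activity gene values was not tested.

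**Figure D5:**
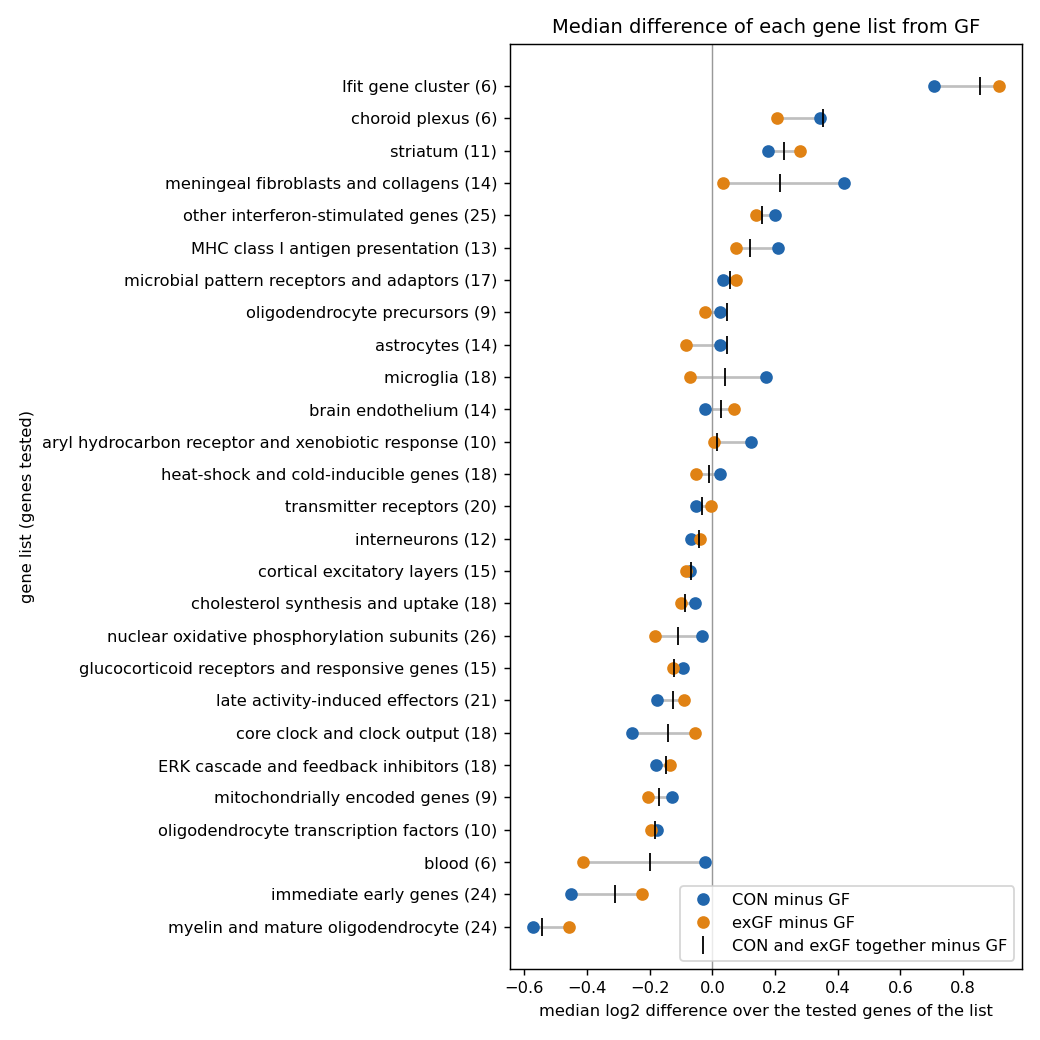
Median log2 difference from GF of each of the 27 gene lists, for CON (blue), exGF (orange) and both together (black tick); the number of genes tested is in brackets. The myelin list has the lowest median (-0.54 together) and the Ifit cluster the highest (0.85 together), and both CON and exGF medians use the same GF libraries.

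The groups were also tested one by one in an edgeR fit of all 3. CON minus GF gave 22 genes called higher (0.137%) and 17 lower (0.106%). The lowest adjusted p-values were those of Rps26-ps1 (4.56, SE 0.49), Gm6612 (-5.95, SE 0.72) and D030028A08Rik (1.96, SE 0.29). These were also called in CON minus exGF, in the same direction (4.92, -5.44 and 1.92), so they did not follow the presence of microbes. Also among the higher were Ifit3 (3.52, SE 0.62, adjusted p = 0.0447 by edgeR), Ifit1bl1, Ifit1, Col1a2, Slc6a13, Tubb6, Stag3 and C1qb. Among the lower were the myelin genes Bcas1 (-1.02, SE 0.17, adjusted p = 0.0303 by edgeR), Mbp, Mobp, Mal, Ermn and Tspan2, and Tmem88b, beside Dusp6, Tnfaip6 and Ciart. These counts were 5 and 1 without GF3, whose myelin level was the highest, and 39 and 29 without GFR4.

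ExGF minus GF gave 0 higher (0%) and 2 lower (0.0125%) genes, the tubulin gene Tuba1c (-4.48, SE 0.72) and Gm14150 (-4.91, SE 0.73), and neither was called between all 8 libraries and GF. The values of the myelin and Ifit genes for exGF minus GF were -0.63 (SE 0.16) for Mbp, -0.65 (SE 0.17) for Bcas1 and 3.16 (SE 0.63) for Ifit3, with adjusted p-values of 0.433 to 0.726 by edgeR.

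CON minus exGF, which compares mice that were both colonized at culling, gave 11 higher (0.0686%) and 4 lower (0.025%) genes, with 911 (5.68%) at an unadjusted p under 0.05 in either direction. Of the 48 named genes 0 were called in this edgeR contrast and 11 had an unadjusted p under 0.05. The genes called in this contrast, C1qb among them, are outside these 48. Most of the 48 were picked by low p in the combined test, whose spread holds any difference between CON and exGF. That choice disfavours genes that differ between CON and exGF, and only 15 genes were called in all. The 0 therefore cannot show that the 48 were alike in CON and exGF. For Mbp the difference was -0.23 (SE 0.16), for Ifit3 0.36 (SE 0.45) and for Irf7 0.09 (SE 0.22), each within 2 standard errors of 0 but with intervals too wide to show equal levels. For Bcas1 (-0.37, SE 0.17), Dusp6 (-0.32, SE 0.10), Tnfaip6 (-0.83, SE 0.27) and Col1a2 (0.43, SE 0.10) the unadjusted p was under 0.05 by edgeR, with exGF between CON and GF in the group means. Among the 15 called, C1qb, the complement subunit made by microglia, had 34.8 to 41.3 CPM in CON, 20.2 to 28.4 CPM in exGF and 24.6 to 28.6 CPM in GF (0.58, SE 0.11, adjusted p = 0.0718 by edgeR).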

How the data were processed

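The authors deposited read counts per gene: paired reads were trimmed with Trimmomatic 0.32, aligned to GRCm38.p3 with STAR and counted with HTSeq 0.6.0 on Ensembl genes without regard to strand. The labels name STAR 2.3.1u and the methods another version. Of 41388 genes 40340 had a name. Rows of unassigned reads were left out of library sizes.

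Counts were tested with edgeR 4.0.16 (R 4.3.3): TMM normalization, filterByExpr on the 2 groups, the quasi-likelihood test and Benjamini-Hochberg adjustment, with calls at an adjusted p under 0.1. CON, exGF and GF were compared in one fit of 3 groups. DESeq2 1.42.0, limma 3.58.1, other scalings, filters, thinning and leaving out each library were alternatives. The procedure was tested on simulated data. Named genes were the 10 of lowest p each way, up to 4 of lowest p per list, and markers. Members and lists were chosen with earlier results of these data known. Count intervals are exact 95% intervals for counting error only, and the floor is 3 counts. Some items are not reported here.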

Additional observations from a re-analysis of the deposited data

Results flagged for a closer look

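Of 192 checks of the 48 named genes in their groups, 7 found a library standing apart from the rest of its group, and chance gives about 1 in 20. S100a8 had 1.62 CPM in CON2 against 0.369 to 0.533 CPM in the other CON libraries. GFR4 stood apart in AA465934 (6.91 CPM against 13.2 to 14.3 CPM in the other exGF libraries) and in Myrf (28.4 CPM against 23.5 to 24.3 CPM). Bdnf had 42.8 CPM in GFR1, apart both from the other exGF libraries (34.9 to 36.0 CPM) and from the other 7 libraries with microbes (31.9 to 36.5 CPM). Among GF libraries, Gm24598 had 0.0448 CPM in GF2, which is 1 count, and 0 in the others, and Atp13a4 had 10.7 CPM in GF1 against 12.9 to 13.3 CPM.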

How the results depend on the processing

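The 0 higher and 0 lower calls with microbes became 5 and 9 without a filter on low counts and 21 and 33 by DESeq2. The 3-group contrast gave 0 and 1 (Gm6612). Leaving out 1 library gave 0 to 4 higher and 0 to 12 lower, with calls only without GFR1, GFR4 or GF replicate 4. Other scalings, a minimum of 10 counts, limma-voom, thinning, a covariate for multiply aligned reads and a threshold of 0.05 gave 0 in both directions. CON minus GF (22 and 17) gave 99 and 78 by DESeq2, and 5 to 39 and 1 to 29 without 1 library, both lowest without GF3 and highest without GFR4. ExGF minus GF (0 and 2) gave 4 and 12 by DESeq2, 0 lower in a separate fit of the pair, and 0 to 3 and 0 to 2 without 1 library. CON minus exGF (11 and 4) gave 33 and 13 by DESeq2, 7 higher in a separate fit, and 5 to 13 and 1 to 8 without 1 library. The cause of these shifts was not tested. All 48 named genes kept their direction in up to 22 other settings. These settings reuse the libraries from which most of the genes were picked by low p, so a kept direction is little support. Of 27 list medians 22 kept their sign, and the aryl hydrocarbon receptor, heat-shock, endothelium, cortical layer and transmitter receptor lists did not.

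The replicate numbers did not pair CON and GF libraries: correlations of same-numbered deviations ran from -0.0539 to 0.0258. With the replicate number as a block, CON minus GF gave 21 higher and 30 lower. GFR columns could not be paired. Depth limits low genes most: 1 count in the shallowest GF library weighs more than in any library with microbes.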
